A study of Mus musculus with 48 samples.

Results

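The genes described here encode 10 receptors or receptor chains for colony-stimulating factors and related cytokines, *Csf1r*, *Csf2ra*, *Csf2rb*, *Csf2rb2*, *Csf3r*, *Il3ra*, *Flt3*, *Il4ra*, *Il10ra*, and *Il10rb*. They were taken by name from the count tables, and all 10 were found among the 54735 genes listed. RNA-seq was measured in 3 splenic populations of male Balb/c mice aged 10 weeks, either WT or *Il1rl1*-/-, a genotype that lacks the IL-33 receptor chain. Monocytes were sorted as Ly6G low, CD11b high, and F4/80 negative cells, precursors of red pulp macrophages (pre-RPMs) as Ly6G low, CD11b high, and F4/80 low cells, and red pulp macrophages (RPMs) as Ly6G low, CD11b low or negative, and F4/80 high cells. There were 4 mice per genotype, each mouse gave 1 library of every population, and no treatment is named for these samples. The comparisons ask how receptor expression differs along the path from monocyte to pre-RPM to RPM, and whether it differs in the absence of IL1RL1.

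Colony-stimulating factors are the cytokines that keep myeloid cells alive and direct their production. CSF1 acts through the receptor tyrosine kinase CSF1R and maintains most tissue macrophages, RPMs of the spleen among them, and FLT3 is a related kinase receptor of progenitors and dendritic cells. GM-CSF, IL-3, and IL-5 each use a ligand-binding alpha chain with a common beta chain, G-CSF uses CSF3R, and IL-4 and IL-10 act through receptors of the wider cytokine receptor families that signal through JAK kinases and STAT factors.

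The genes lie on 9 chromosomes of the mouse genome, build GRCm38, at the positions that the count tables give. The kinase receptors are *Csf1r* (ENSMUSG00000024621, chr18:61105572-61132149, plus strand) and *Flt3* (ENSMUSG00000042817, chr5:147330741-147400489, minus strand). The beta chain genes lie next to each other, *Csf2rb2* (ENSMUSG00000071714) at chr15:78282507-78305721 on the minus strand and *Csf2rb* (ENSMUSG00000071713) at chr15:78325752-78353847 on the plus strand. The alpha chains are *Csf2ra* (ENSMUSG00000059326, chr19:61224402-61228418, minus strand) and *Il3ra* (ENSMUSG00000068758, chr14:14346275-14356011, plus strand), and the G-CSF receptor is *Csf3r* (ENSMUSG00000028859, chr4:126024550-126044440, plus strand). The others are *Il4ra* (ENSMUSG00000030748, chr7:125552120-125579474, plus strand), *Il10ra* (ENSMUSG00000032089, chr9:45253837-45269149, minus strand), and *Il10rb* (ENSMUSG00000022969, chr16:91406164-91425834, plus strand). Counts are of read pairs over the exons of each gene. The paralogs *Csf2rb* and *Csf2rb2* share 12.3% and 18.9% of the 50-base windows of their transcripts with other genes, nearly all with each other, so the split of reads between them is uncertain. *Csf3r* shares 10.5% of its windows, mostly with *AC105061.2*, and *Il10rb* shares 13.9%, mostly with *Gm21970*, whose exons overlap it on the same strand. The exons of *Csf2rb* overlap those of *Mir7676-2* on the same strand, and those of *Csf2rb2* overlap *Mir7676-1*.

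The colony-stimulating factors that these chains bind differ in the cells they act on, GM-CSF on monocytes, macrophages, and dendritic cells, IL-3 on progenitors, basophils, and mast cells, and G-CSF on neutrophils.

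The table of promoters used here, from RefSeq on build GRCm38.p6, holds 6 of the 10 genes. The 250 bases before the start are shown for *Csf2ra*, *Csf2rb2*, and *Csf3r*, in 5′ to 3′ order on the strand of the gene. These are the genes whose promoters hold the letters marked below. They encode chains of the receptors for GM-CSF, IL-3, and G-CSF, and each had a lower level in RPMs than in pre-RPMs. Capitals mark the letters GAGGAA on either strand (TTCCTC where the match is on the other strand), the core recognised by PU.1, a transcription factor of myeloid cells.
Csf2ra, chr19:61228419-61228668, minus strand: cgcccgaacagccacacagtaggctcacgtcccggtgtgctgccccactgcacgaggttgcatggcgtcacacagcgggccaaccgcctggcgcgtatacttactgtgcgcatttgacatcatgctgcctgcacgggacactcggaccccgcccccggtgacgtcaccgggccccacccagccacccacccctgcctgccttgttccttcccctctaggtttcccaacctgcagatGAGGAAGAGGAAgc
Csf2rb2, chr15:78305722-78305971, minus strand: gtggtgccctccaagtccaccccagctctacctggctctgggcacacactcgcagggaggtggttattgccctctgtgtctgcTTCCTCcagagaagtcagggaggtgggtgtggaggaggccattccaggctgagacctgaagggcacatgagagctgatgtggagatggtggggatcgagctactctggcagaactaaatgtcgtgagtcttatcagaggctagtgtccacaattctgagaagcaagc
Csf3r, chr4:126024409-126024658, plus strand: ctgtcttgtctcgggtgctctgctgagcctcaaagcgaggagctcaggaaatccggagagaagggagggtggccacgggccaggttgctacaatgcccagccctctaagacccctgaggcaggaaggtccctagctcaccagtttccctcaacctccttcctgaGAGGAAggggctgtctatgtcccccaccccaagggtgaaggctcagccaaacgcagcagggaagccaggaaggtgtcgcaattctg

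The *Csf2ra* promoter held 2 such matches side by side, beginning 14 and 8 bases before the start. The *Csf2rb2* and *Csf3r* promoters held 1 match each, beginning 167 and 86 bases before the start. The RefSeq start of *Csf3r* lies inside the gene as the count tables bound it. *Csf1r*, *Csf2rb*, *Il10ra*, and *Il10rb* are the genes without an entry. The promoters of *Il3ra*, *Flt3*, and *Il4ra* did not hold these letters, so that 3 of the 6 promoters had a match, against 23.3% of 32817 promoters of the same length. The promoters shown are thus those with a match, and *Flt3*, without one, was also lower in RPMs than in pre-RPMs. *Il3ra*, a chain of the IL-3 receptor without a match, was higher in RPMs. Whether these letters bear on the levels was not tested. The letters TGTGGT, a core of RUNX factors, were in none of the 6 on either strand and in 14.04% of all promoters. The letters TTGCNNAA of C/EBP factors were found in the *Il3ra* promoter alone among the 6, and in 9.57% of all promoters.

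The total count per library ranged from 3562367 to 6559454, so that 3 counts corresponded to 0.457 to 0.842 CPM, and the RNA gene *Gm42418* took 24.4% to 38.8% of the counts. Counts of *Il1rl1*, the targeted gene, went against the label in monocytes, at 12 to 28 in WT and 51 to 73 in libraries labelled *Il1rl1*-/-, and in pre-RPMs, at 13 to 24 and 42 to 76, and overlapped in RPMs, at 5 to 13 and 1 to 7, so that genotypes are named here by their label. The counts are summed over all exons of *Il1rl1*, and the cause of these values was not tested. If labels were exchanged, each genotype difference given here would have the opposite sign. Markers set RPMs apart from the other populations, whereas monocyte markers overlapped between monocytes and pre-RPMs. The marker lists hold none of the 10 genes. The summed level of 8 monocyte markers was 1087 to 3516 CPM in monocytes, 2244 to 3640.2 CPM in pre-RPMs, and 17.3 to 108 CPM in RPMs. The sum of 8 RPM markers was 41.6 to 135, 147 to 308, and 4975 to 7291 CPM. Markers of other cells moved as well. The sum of 6 NK cell markers was 468 to 1737 CPM in monocytes, 12.3 to 129 CPM in pre-RPMs, and 7.65 to 37.3 CPM in RPMs. The labels name Ly6G, CD11b, and F4/80 for the sort and no NK cell antigen. The flow cytometry of the study took these populations from cells low in NK1.1 and CD11c, a gate that would remove NK cells and most dendritic cells, and its methods do not say whether the sort for RNA used it. The sum of 11 neutrophil markers was 786 to 2501, 186 to 424, and 2.18 to 20.2 CPM, that of 6 eosinophil markers was 8.99 to 32.5, 52.5 to 130.3, and 269 to 390.2 CPM, of which *Ccr3* alone made 263 to 384 CPM in RPMs, and that of 6 erythroid genes was 4.78 to 22.9, 9.14 to 423, and 665 to 19933 CPM. In these sorted populations, fewer cells of a type and less RNA per cell cannot be told apart.

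**Figure D1:**
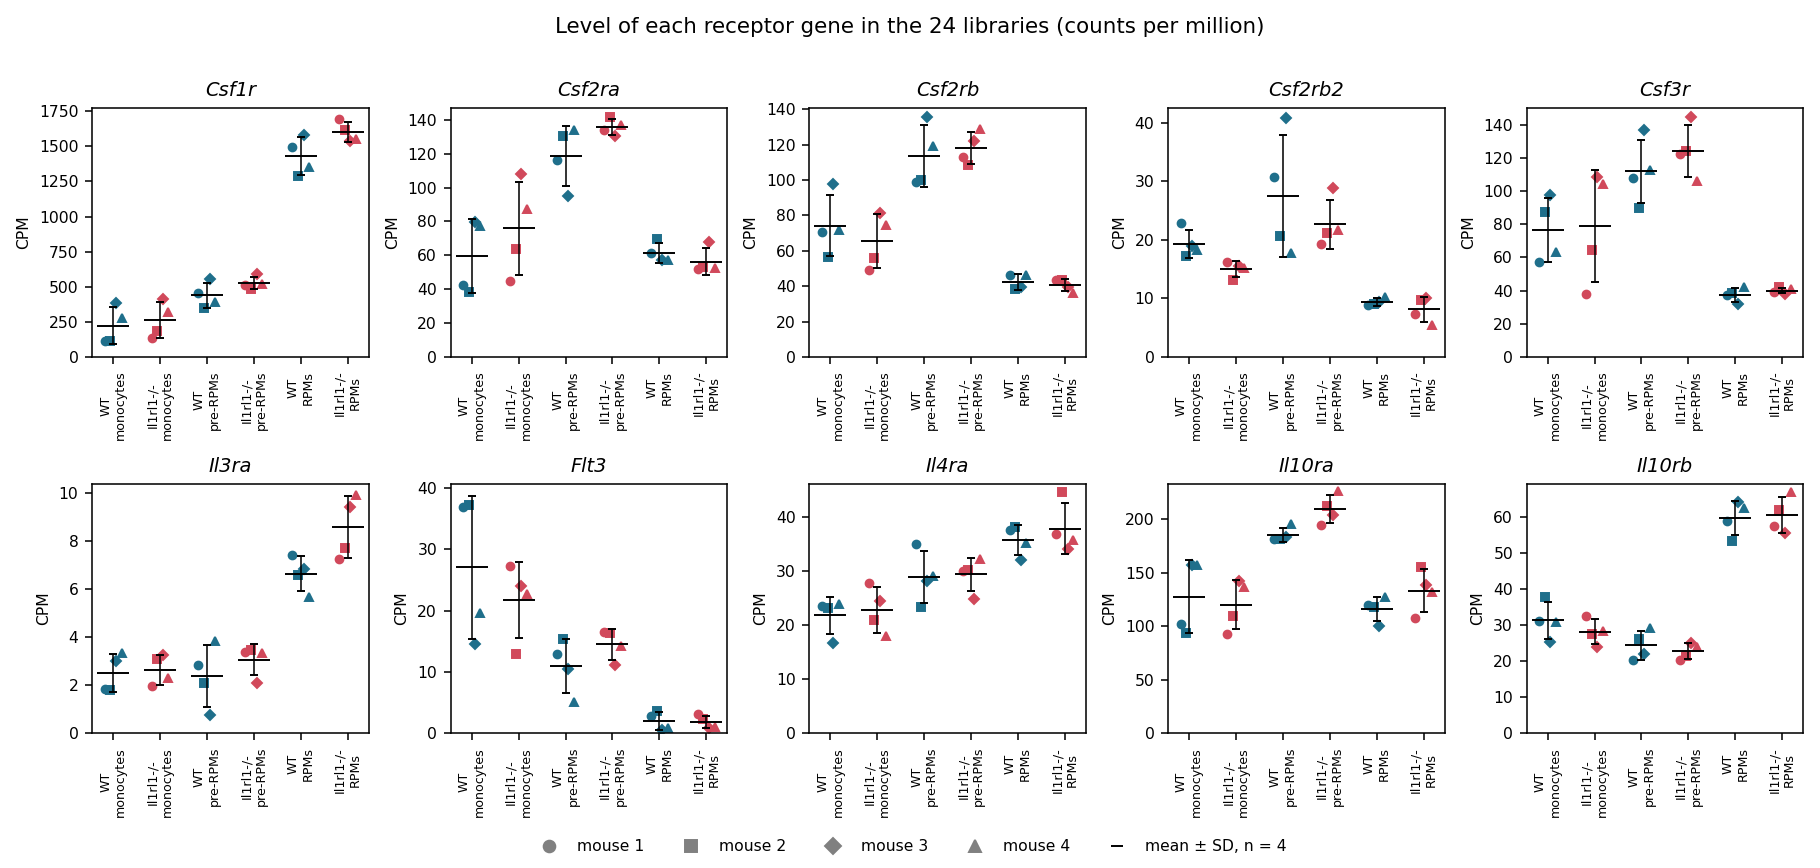
Level of each receptor gene in CPM (counts scaled by library size) in the 24 libraries, by population and genotype label, with a marker for each mouse number and the mean ± SD of 4 libraries. Csf1r, Il3ra, and Il10rb were highest in RPMs, where Flt3 was near the level of a few counts, and Csf2ra, Csf2rb, Csf2rb2, Csf3r, and Il10ra had their highest means in pre-RPMs.

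*Csf1r* had the highest level of the 10 genes in all 6 groups per length of transcript. In WT it was 45.2 ± 26.9 CPM per kb in monocytes, 89.6 ± 18.8 in pre-RPMs, against 293 ± 27.1 in RPMs (mean ± SD, n = 4). In CPM, WT monocytes of mice 1 to 4 had 116, 111, 382, and 274, and monocytes labelled *Il1rl1*-/- had 137, 184, 414, and 323. WT pre-RPMs had 459, 347, 557, and 389 CPM, and pre-RPMs labelled *Il1rl1*-/- had 515, 486, 587, and 522. All 8 RPM libraries, at 1288 to 1695 CPM, stood above every other library. From pre-RPMs to RPMs *Csf1r* rose 3.27-fold in WT, by a log2 fold change of 1.71 ± 0.16 (SE, adjusted p = 6.37e-07 by edgeR), and 3.01-fold in libraries labelled *Il1rl1*-/-, by 1.59 ± 0.10 (SE, adjusted p = 2.74e-09 by edgeR). From monocytes to RPMs it rose 6.57-fold in WT, 2.72 ± 0.38 (SE, adjusted p = 0.000151 by edgeR), and 6.11-fold in libraries labelled *Il1rl1*-/-, 2.61 ± 0.29 (SE, adjusted p = 1.08e-05 by edgeR). RPMs are maintained by the ligand of this receptor, CSF1, whose own gene *Csf1* fell from pre-RPMs to RPMs (log2 fold change −2.71, SE 0.36).

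The difference in *Csf1r* between monocytes and pre-RPMs did not pass the threshold (adjusted p under 0.01 and a log2 fold change beyond 1 in size) in either genotype. It was 0.98 ± 0.35 (SE, adjusted p = 0.0811 by edgeR) in WT, where the groups overlapped, and 0.97 ± 0.26 (SE, adjusted p = 0.0274 by edgeR) in libraries labelled *Il1rl1*-/-, where they did not. With the mouse as a block it passed in libraries labelled *Il1rl1*-/-, at 1.08 (edgeR's adjusted p = 0.00199), and without the monocyte library of mouse 3 it passed in WT at 1.39 (edgeR's adjusted p = 0.00499) and in libraries labelled *Il1rl1*-/- at 1.26 (edgeR's adjusted p = 0.00237). The monocyte libraries were uneven. *Csf1r* was 111 to 184 CPM in those of mice 1 and 2 of both genotypes and 274 to 414 CPM in those of mice 3 and 4. The sum of NK cell markers was 1490.4, 1737, 527, and 979 CPM in WT monocytes of mice 1 to 4 and 1421, 1052, 468, and 745 CPM in those labelled *Il1rl1*-/-, and the sum of monocyte markers was 1319.5, 1087, 3014, and 2379 CPM and 1486, 1895, 3516, and 2699.6 CPM. The 4 libraries of mice 1 and 2 were thus the highest in NK cell markers and the lowest in monocyte markers and in *Csf1r*. Mice of the same number in the 2 genotypes are different animals whose libraries share an index label, the labels give no date of sort or library, and the part of these markers in the result was not tested. Without those 4 libraries the monocyte to pre-RPM difference in *Csf1r* was 0.42 (edgeR's adjusted p = 0.245) in WT and 0.49 (edgeR's adjusted p = 0.0303) in libraries labelled *Il1rl1*-/-, and the difference from monocytes to RPMs was 2.15 (edgeR's adjusted p = 8.48e-06) and 2.10 (edgeR's adjusted p = 5.63e-07).

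**Figure D2:**
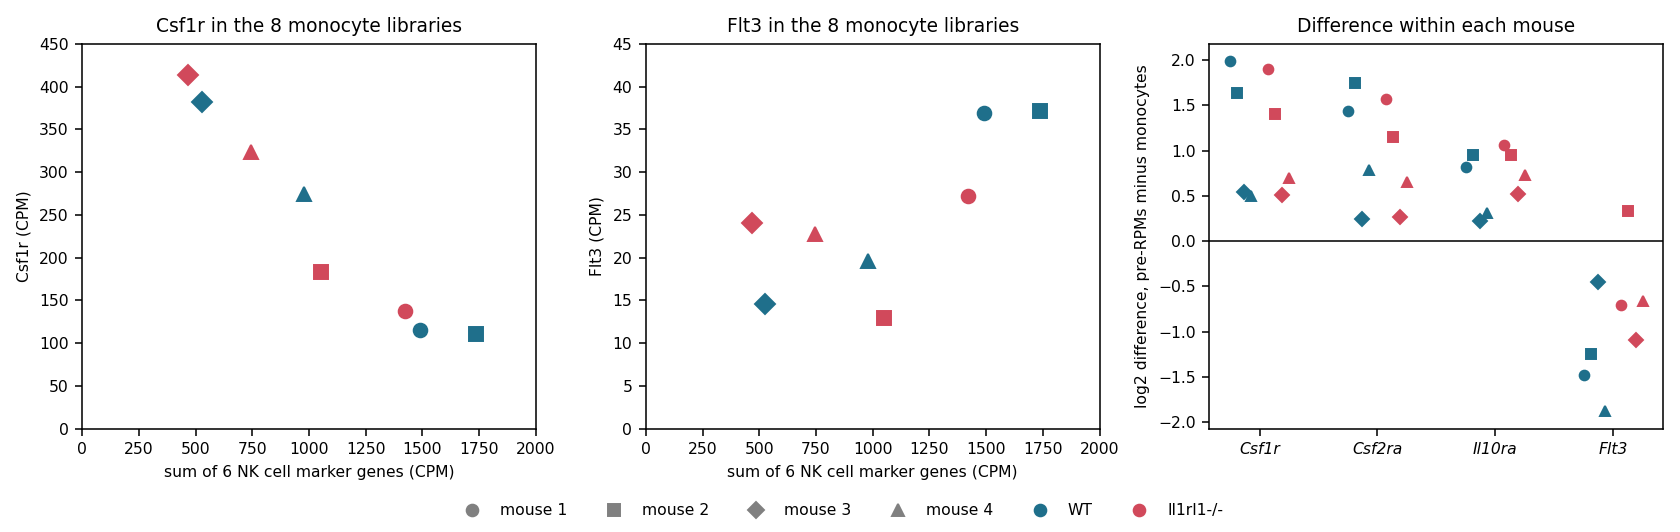
Csf1r (left) and Flt3 (middle) in CPM against the summed CPM of 6 NK cell markers in the 8 monocyte libraries, and the log2 difference between pre-RPMs and monocytes within each mouse for 4 genes (right). Csf1r was 274 to 414 CPM in the 4 libraries of mice 3 and 4 and 111 to 184 CPM in the 4 of mice 1 and 2, and the differences in Csf1r, Csf2ra, and Il10ra were larger in mice 1 and 2 than in mice 3 and 4 of the same genotype.

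*Flt3* had the opposite order to *Csf1r*. Monocytes had 36.9, 37.2, 14.5, and 19.6 CPM in WT mice 1 to 4 and 27.2, 12.9, 24.04, and 22.8 CPM in mice labelled *Il1rl1*-/-, and pre-RPMs had 12.9, 15.4, 10.5, and 5.04 and 16.6, 16.3, 11.1, and 14.3 CPM. RPM libraries of WT mice held 14, 18, 2, and 4 counts and those labelled *Il1rl1*-/- held 14, 14, 4, and 5, at most 3.59 CPM, so that every RPM library was below every other library and the lowest was within 3 counts. From monocytes to RPMs *Flt3* fell by a log2 fold change of 3.68 ± 0.47 (SE, adjusted p = 7.93e-05 by edgeR) in WT, the largest change among the 10 genes, and by 3.53 ± 0.34 (SE, adjusted p = 3.41e-06 by edgeR) in libraries labelled *Il1rl1*-/-. From pre-RPMs to RPMs it fell by 2.39 ± 0.44 (SE, adjusted p = 0.000428 by edgeR) and 2.98 ± 0.29 (SE, adjusted p = 3.51e-07 by edgeR). The monocyte to pre-RPM difference, −1.31 ± 0.36 (SE, adjusted p = 0.0329 by edgeR) in WT and −0.60 ± 0.21 (SE, adjusted p = 0.0745 by edgeR) in libraries labelled *Il1rl1*-/-, did not pass, and with the mouse as a block it passed in WT at −1.30 (edgeR's adjusted p = 0.00448). The WT monocyte libraries of mice 1 and 2 had the highest *Flt3* of all, and without the monocyte libraries of mice 1 and 2 the WT difference was −0.65 (edgeR's adjusted p = 0.262). Without the WT monocyte library of mouse 3 it passed at −1.50 (edgeR's adjusted p = 0.00429). Dendritic cells and progenitors are the usual carriers of *Flt3*. The sum of 9 dendritic cell markers was 104 to 181 CPM in monocytes, 91.1 to 166 CPM in pre-RPMs, and 83.4 to 109 CPM in RPMs. By gene, from pre-RPMs to RPMs 1 of 6 tested rose and 2 fell in WT. In libraries labelled *Il1rl1*-/- 0 of 6 rose and 2 fell. Of all genes tested, 14% rose and 10.7% fell in WT, and 14.5% and 11.5% in libraries labelled *Il1rl1*-/-. The sum of 5 progenitor markers was at most 27.9 CPM in any library. The part of these markers in the result was not tested.

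The GM-CSF receptor joins the alpha chain encoded by *Csf2ra*, which binds only GM-CSF, to the common beta chain encoded by *Csf2rb*, which carries the signal. *Csf2ra* was 116, 131, 94.8, and 134 CPM in WT pre-RPMs and 61.2, 69.9, 57.1, and 57.2 CPM in WT RPMs, and in libraries labelled *Il1rl1*-/- it was 134, 142, 130.3, and 137 and 51.6, 52.9, 67.9, and 52.4 CPM. The groups did not overlap in either genotype, as was the case for 46.5% of all genes tested in WT and 49.3% in libraries labelled *Il1rl1*-/-. The log2 fold change was −0.96 ± 0.13 (SE, adjusted p = 3.01e-05 by edgeR) in WT, just inside the limit of 1, and −1.28 ± 0.10 (SE, adjusted p = 4.62e-08 by edgeR) in libraries labelled *Il1rl1*-/-, where it passed. The WT value passed without the pre-RPM library of mouse 3, at −1.06 (edgeR's adjusted p = 5.25e-06), or without the RPM library of mouse 2, at −1.02 (edgeR's adjusted p = 3.07e-05), and the interaction test found no difference between the changes of the 2 genotypes (−0.31, 95% interval −0.66 to 0.041). *Csf2ra* in monocytes was 42.6, 38.6, 79.9, and 77.4 CPM in WT and 44.7, 63.8, 108, and 87.1 CPM in libraries labelled *Il1rl1*-/-, lower in mice 1 and 2 than in mice 3 and 4 in both. The difference to pre-RPMs was 1.00 ± 0.24 (SE, adjusted p = 0.0192 by edgeR) and 0.80 ± 0.20 (SE, adjusted p = 0.0174 by edgeR), short of the threshold, with no overlap of the groups, and without the monocyte libraries of mice 1 and 2 it was 0.60 (edgeR's adjusted p = 0.0361) and 0.45 (edgeR's adjusted p = 0.0198). Without the monocyte library of mouse 3 alone it passed, at 1.17 (edgeR's adjusted p = 0.00319) in WT and 1.02 (edgeR's adjusted p = 0.00162) in libraries labelled *Il1rl1*-/-.

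*Csf2rb*, the common beta chain of the GM-CSF, IL-3, and IL-5 receptors, was separated in all 3 populations. It was 49.3 to 97.9 CPM in the 8 monocyte libraries, 99.1 to 136 CPM in the 8 pre-RPM libraries, and 36.2 to 46.5 CPM in the 8 RPM libraries, without overlap. WT pre-RPMs had 99.1, 100.3, 136, and 119 CPM and WT RPMs 46.4, 38.1, 39.3, and 46.5 CPM. From pre-RPMs to RPMs it fell 2.67-fold in WT, a log2 fold change of −1.42 ± 0.13 (SE, adjusted p = 3.68e-07 by edgeR), and 2.92-fold in libraries labelled *Il1rl1*-/-, −1.55 ± 0.096 (SE, adjusted p = 1.96e-09 by edgeR). From monocytes to pre-RPMs the change was 0.61 ± 0.17 (SE, adjusted p = 0.0338 by edgeR) in WT and 0.82 ± 0.14 (SE, adjusted p = 0.00256 by edgeR) in libraries labelled *Il1rl1*-/-, and from monocytes to RPMs −0.78 ± 0.17 (SE, adjusted p = 0.00265 by edgeR) and −0.67 ± 0.15 (SE, adjusted p = 0.00306 by edgeR), all below the fold limit. Eosinophils also carry the common beta chain. The sum of the 6 eosinophil markers was higher in RPMs, at 269 to 390.2 CPM, most of it *Ccr3*, than in pre-RPMs, at 52.5 to 130.3 CPM. Of the eosinophil markers, 2 of 4 tested rose from WT monocytes to WT pre-RPMs and 0 fell, and from WT pre-RPMs to WT RPMs 1 of 3 rose and 1 fell. Of all genes tested, 0.316% rose and 3.25% fell in the former comparison, and 14% rose and 10.7% fell in the latter. *Alox15* was 1.46 to 9.70 CPM in monocytes, 13.3 to 51.2 CPM in pre-RPMs, and 0 to 3.39 CPM in RPMs, and *Il5ra*, the IL-5 receptor alpha chain that pairs with the product of *Csf2rb*, was 0 to 1.39, 1.00 to 7.75, and 0 to 0.998 CPM. Their part in the values of *Csf2ra*, *Csf2rb*, and *Csf2rb2* was not tested.

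*Csf2rb2* encodes a beta chain that serves the IL-3 receptor alone and is found in the mouse. WT pre-RPMs had 30.8, 20.6, 40.8, and 17.7 CPM, WT RPMs 8.87, 8.98, 9.42, and 10.2 CPM, and WT monocytes 22.8, 17.3, 18.9, and 18.3 CPM. The pre-RPM libraries spread widely, with those of mice 1 and 3 high, and all 8 RPM libraries, at 5.48 to 10.2 CPM, were below the rest. It fell from pre-RPMs to RPMs by 1.55 ± 0.23 (SE, adjusted p = 5.92e-05 by edgeR) in WT and 1.47 ± 0.19 (SE, adjusted p = 7.97e-06 by edgeR) in libraries labelled *Il1rl1*-/- on the log2 scale. From monocytes to RPMs the WT change of −1.03 ± 0.14 (SE, adjusted p = 0.000139 by edgeR) passed narrowly, and it was below the fold limit without the WT monocyte library of mouse 1 (−0.93), the WT RPM library of mouse 1 (−0.98) or that of mouse 2 (−0.99), and without the monocyte libraries of mice 1 and 2 (−0.96). In libraries labelled *Il1rl1*-/- it was −0.87 ± 0.20 (SE, adjusted p = 0.00268 by edgeR) and did not pass.

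*Il3ra*, the alpha chain of the IL-3 receptor, was the least abundant of the 10 genes per length in monocytes and pre-RPMs, at 0.842 ± 0.268 and 0.800 ± 0.437 CPM per kb in WT (mean ± SD, n = 4), and rested on few counts. WT monocytes had 12, 9, 13, and 22 counts, WT pre-RPMs 12, 8, 3, and 16, and WT RPMs 36, 33, 26, and 25. In RPMs it reached 5.67 to 9.90 CPM, above all 16 other libraries, of which the highest had 3.84 CPM. The rise from pre-RPMs to RPMs was 1.45 ± 0.33 (SE, adjusted p = 0.00215 by edgeR) in WT and 1.43 ± 0.23 (SE, adjusted p = 8.18e-05 by edgeR) in libraries labelled *Il1rl1*-/- on the log2 scale, and from monocytes to RPMs it was 1.42 ± 0.26 (SE, adjusted p = 0.000933 by edgeR) and 1.69 ± 0.23 (SE, adjusted p = 7.12e-05 by edgeR). In the pre-RPM to RPM comparison *Il3ra* thus rose while the beta chains it can pair with, *Csf2rb* and *Csf2rb2*, fell. Tested against a log2 fold change of 1 in size, this rise of *Il3ra* did not pass. The adjusted p by glmTreat of edgeR was 0.156 in WT and 0.0582 in libraries labelled *Il1rl1*-/-.

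**Figure D3:**
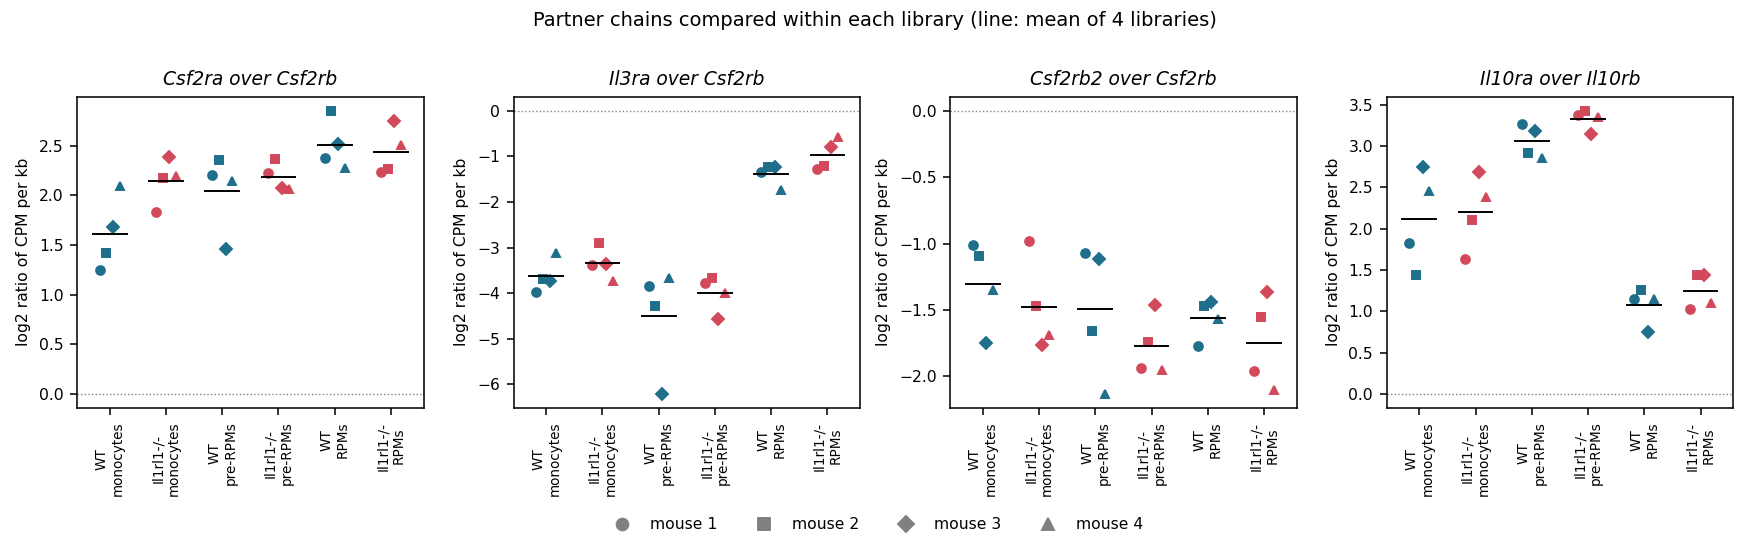
Log2 ratio of 2 receptor chains within each library, from CPM per kb of exons, by population and genotype label, with a marker for each mouse number and the mean of 4 libraries as a line. Il3ra over Csf2rb was −1.74 to −0.58 in RPMs and −6.21 to −2.89 in the other libraries, and Il10ra over Il10rb was highest in pre-RPMs and lowest in RPMs.

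The ratio of chains that pair in a receptor was taken within each library, from CPM per kb, as a description. Log2 *Csf2ra* over *Csf2rb* was 1.24 to 2.38 in monocytes, 1.46 to 2.36 in pre-RPMs, against 2.23 to 2.85 in RPMs. Per kb the alpha chain transcript exceeded the beta chain transcript in every library, and the populations overlapped. This order rests on the division by exon length, since in CPM the mean in WT monocytes was 59.6 for *Csf2ra* and 74.2 for *Csf2rb*. Log2 *Il3ra* over *Csf2rb* was −3.96 to −2.89 in monocytes and −6.21 to −3.67 in pre-RPMs, with the lowest value in the WT pre-RPM library that had 3 counts of *Il3ra*. In RPMs it was −1.74 to −0.58, and by the mean log2 ratio the level of *Csf2rb* per kb was 2.62 times that of *Il3ra* in WT RPMs against 12.4 times in WT monocytes. Log2 *Csf2rb2* over *Csf2rb* was −2.13 to −0.98 over the 24 libraries, with group means between −1.78 and −1.30. This ratio, like the others over *Csf2rb*, depends on how reads shared by the paralogs were counted.

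*Csf3r*, the G-CSF receptor best known from neutrophils, was 108, 90.1, 137, and 113 CPM in WT pre-RPMs and 37.1, 38.5, 32.2, and 41.97 CPM in WT RPMs, and in libraries labelled *Il1rl1*-/- it was 123, 124, 145, and 106 and 38.89, 41.99, 38.2, and 41.1 CPM. It fell 2.99-fold in WT, −1.58 ± 0.13 (SE, adjusted p = 1.8e-07 by edgeR), and 3.12-fold in libraries labelled *Il1rl1*-/-, −1.64 ± 0.11 (SE, adjusted p = 4.73e-09 by edgeR), on the log2 scale. Monocytes had 57.4, 87.3, 97.7, and 63.3 CPM in WT and 38.2, 64.8, 108, and 104 CPM in libraries labelled *Il1rl1*-/-, and the lowest of the latter overlapped the RPMs. The monocyte to RPM change of −1.01 ± 0.18 (SE, adjusted p = 0.000904 by edgeR) in WT passed narrowly. It was −0.97 (edgeR's adjusted p = 0.0025) with the mouse as a block, and −0.93, −0.85, −0.98, and −0.93 without the WT monocyte library of mouse 2 or 3 or the WT RPM library of mouse 1 or 3. In libraries labelled *Il1rl1*-/- it was −0.97 ± 0.25 (SE, adjusted p = 0.00732 by edgeR), and passed at −1.20 or −1.08 without the monocyte library of mouse 1 or 2, and at −1.43 (edgeR's adjusted p = 5.31e-07) without both. The mean of *Csf3r* was 112 ± 19.2 CPM in WT pre-RPMs and 76.4 ± 19.2 CPM in WT monocytes (mean ± SD, n = 4). That difference, 0.55 ± 0.18 (SE, adjusted p = 0.0677 by edgeR) in WT and 0.62 ± 0.25 (SE, adjusted p = 0.113 by edgeR) in libraries labelled *Il1rl1*-/-, did not pass. The sum of neutrophil markers was 786 to 2501 CPM in monocytes, 186 to 424 CPM in pre-RPMs, and 2.18 to 20.2 CPM in RPMs. Of 10 neutrophil markers tested, 1 rose, 5 fell, and 4 did not pass from WT monocytes to WT pre-RPMs, and from WT pre-RPMs to WT RPMs 7 of 7 fell. Of all genes tested, 0.316% rose and 3.25% fell in the former comparison, and 14% rose and 10.7% fell in the latter. The markers did not move as one, since *Retnlg* was 2.43 to 25.9 CPM in monocytes, 34.5 to 133 CPM in pre-RPMs, and 0 to 6.19 CPM in RPMs, and *Mmp8* was 14.2 to 30.2 CPM in WT monocytes and 13.9 to 29.03 CPM in WT pre-RPMs. Their part in the values of *Csf3r* was not tested.

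The cytokine receptors outside the colony-stimulating factor group followed separate courses. *Il4ra*, the chain shared by the receptors of IL-4 and IL-13, ranged from 16.6 to 44.6 CPM over the 24 libraries. WT monocytes had 23.4, 23.1, 16.6, and 23.9 CPM, WT pre-RPMs 34.99, 23.2, 28.03, and 29.01 CPM, and WT RPMs 37.5, 38.1, 31.9, and 35.2 CPM, and the RPM libraries of both genotypes were above all monocyte libraries. The change from monocytes to RPMs was 0.73 ± 0.14 (SE, adjusted p = 0.00122 by edgeR) in WT and 0.74 ± 0.15 (SE, adjusted p = 0.00152 by edgeR) in libraries labelled *Il1rl1*-/-, under the fold limit, and that from pre-RPMs to RPMs was 0.31 ± 0.13 (SE, adjusted p = 0.0604 by edgeR) and 0.35 ± 0.11 (SE, adjusted p = 0.0136 by edgeR).

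*Il10ra*, which binds IL-10 and defines its receptor, was at rank 2 or 3 by level per length among the 10 genes in every group. Pre-RPMs had 181, 181, 184, and 195 CPM in WT and 195, 212, 204, and 226 CPM in libraries labelled *Il1rl1*-/-, above every monocyte (93.1 to 157 CPM) and RPM (99.7 to 155 CPM) library. The change from pre-RPMs to RPMs, −0.68 ± 0.11 (SE, adjusted p = 0.000136 by edgeR) in WT and −0.66 ± 0.11 (SE, adjusted p = 9.88e-05 by edgeR) in libraries labelled *Il1rl1*-/-, had a small adjusted p but stayed under the fold limit. From monocytes to pre-RPMs the change was 0.54 ± 0.17 (SE, adjusted p = 0.0579 by edgeR) and 0.76 ± 0.13 (SE, adjusted p = 0.0019 by edgeR), and 0.24 (edgeR's adjusted p = 0.314) and 0.56 (edgeR's adjusted p = 0.00267) without the monocyte libraries of mice 1 and 2, in which *Il10ra* was lower than in those of mice 3 and 4.

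*Il10rb*, the accessory chain that the IL-10 receptor shares with receptors of IL-22 and interferon lambda, had its highest level in RPMs. WT RPMs had 58.97, 53.5, 64.4, and 62.6 CPM, WT pre-RPMs 20.4, 26.1, 22.02, and 29.3 CPM, and WT monocytes 31.3, 37.8, 25.4, and 31.04 CPM, and no RPM library overlapped the others. The rise from pre-RPMs to RPMs was 1.29 ± 0.13 (SE, adjusted p = 1.3e-06 by edgeR) in WT and 1.41 ± 0.10 (SE, adjusted p = 1.52e-08 by edgeR) in libraries labelled *Il1rl1*-/-. From monocytes to RPMs it was 0.95 ± 0.13 (SE, adjusted p = 0.000171 by edgeR) in WT, just under the fold limit, and 1.11 ± 0.12 (SE, adjusted p = 1.14e-05 by edgeR) in libraries labelled *Il1rl1*-/-, which passed, and the WT value passed at 1.05 without the WT monocyte library of mouse 2, at 1.01 without the WT RPM library of mouse 2, and at 1.10 without the monocyte libraries of mice 1 and 2. Log2 *Il10ra* over *Il10rb*, from CPM per kb, was 1.44 to 2.75 in monocytes, 2.86 to 3.43 in pre-RPMs, against 0.75 to 1.44 in RPMs. By the mean log2 ratio, the excess of the ligand-binding chain per kb was 8.33-fold in WT pre-RPMs and 2.11-fold in WT RPMs, and the pre-RPM libraries did not overlap those of the other populations. The size of this ratio depends on how reads that *Il10rb* shares with *Gm21970* were counted.

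From WT pre-RPMs to WT RPMs, 7 of the 10 genes passed the threshold, where 24.7% of the 11239 genes tested did. Of these, 3 rose (*Csf1r*, *Il3ra*, and *Il10rb*) and 4 fell (*Csf2rb*, *Csf2rb2*, *Csf3r*, and *Flt3*), against 14% and 10.7% of all genes. In libraries labelled *Il1rl1*-/-, 8 passed, the same 7 genes and *Csf2ra*, which was lower, where 26% of 11437 genes did, 14.5% higher and 11.5% lower. The median log2 fold change of the 10 genes was −0.82 in WT and −0.97 in libraries labelled *Il1rl1*-/-, against −0.0012 and −0.0018 over all genes tested. It describes no common shift, as the changes ran from −2.39 to 1.71 in WT and from −2.98 to 1.59 in libraries labelled *Il1rl1*-/-. The groups did not overlap for 9 of the 10 genes in WT, against 46.5% of all genes tested. In libraries labelled *Il1rl1*-/- they did not for 10, against 49.3%. Separation over all 8 libraries of a population was not counted over all genes. The 10 genes were chosen with earlier results of these data known, so their share is a description. From monocytes to RPMs, 5 genes passed in WT (*Csf1r* and *Il3ra* higher, *Csf2rb2*, *Csf3r*, and *Flt3* lower, against 23.9% of all genes, 13.4% higher and 10.5% lower) and 4 in libraries labelled *Il1rl1*-/- (*Csf1r*, *Il3ra*, and *Il10rb* higher, *Flt3* lower, against 25.9%, 14.3% and 11.6%). Groups did not overlap for 8 genes in WT and 7 in libraries labelled *Il1rl1*-/-, against 44.7% and 46.9% of all genes tested. This comparison shares its RPM libraries with the one before and its monocyte libraries with the next.

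From monocytes to pre-RPMs, 0 of the 10 genes passed in either genotype by edgeR, where 3.57% of 11091 genes passed in WT (0.316% higher, 3.25% lower) and 4.85% of 11196 in libraries labelled *Il1rl1*-/- (0.974% higher, 3.88% lower). The unadjusted p was under 0.05 for 8 of the 10 genes in WT and 9 in libraries labelled *Il1rl1*-/-, and DESeq2 called 1 gene in WT (*Flt3*) and 0 in libraries labelled *Il1rl1*-/-. The log2 fold changes ran from −1.31 (*Flt3*) to 1.00 (*Csf2ra*) in WT and from −0.60 (*Flt3*) to 0.97 (*Csf1r*) in libraries labelled *Il1rl1*-/-, with medians of 0.52 and 0.59 against 0.0069 and −0.0018 over all genes. Groups did not overlap for 3 genes in WT and 5 in libraries labelled *Il1rl1*-/-, against 20.7% and 22.4% of all genes tested. Without the monocyte libraries of mice 1 and 2, an alternative chosen after the values were seen, 0 passed in either genotype.

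**Figure D4:**
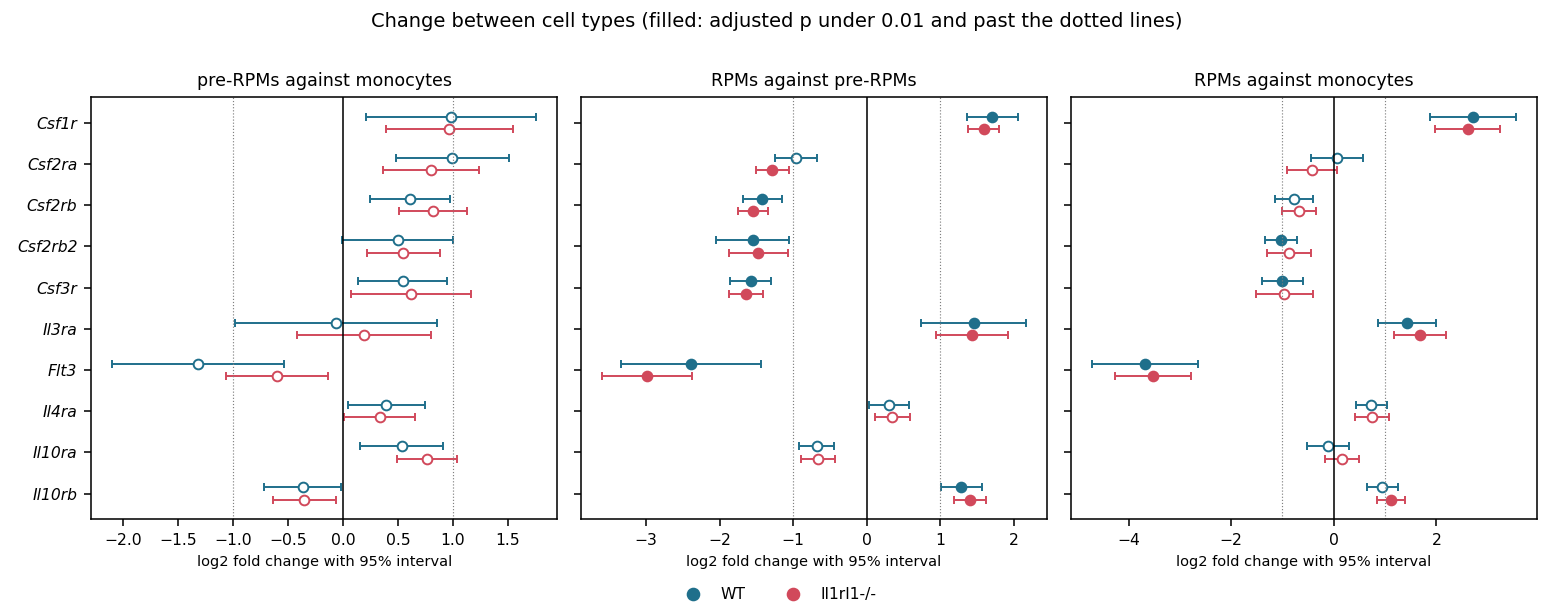
Log2 fold change of each gene between populations, in WT and in libraries labelled Il1rl1-/-, with 95% intervals from the edgeR fit. Filled points had an adjusted p under 0.01 and lay beyond the dotted lines at 1 and −1, which was the case for 7 genes in WT and 8 in libraries labelled Il1rl1-/- between pre-RPMs and RPMs and for 0 between monocytes and pre-RPMs.

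Between genotypes, 0 of the 10 genes passed an adjusted p under 0.05 in any population by edgeR, and 0 did by DESeq2. Of all genes tested, 0.0614% passed in monocytes (0.0438% higher and 0.0175% lower in libraries labelled *Il1rl1*-/-), 0.552% in pre-RPMs (0.168% and 0.383%), and 0.233% in RPMs (0.152% and 0.0807%). The log2 fold changes of libraries labelled *Il1rl1*-/- against WT were between −0.35 and 0.36 in monocytes, between −0.31 and 0.40 in pre-RPMs, and between −0.23 and 0.34 in RPMs. *Csf2rb2* in monocytes was the single gene with an unadjusted p under 0.05, at −0.35 (95% interval −0.66 to −0.051) and edgeR's adjusted p = 0.997. Its WT libraries, at 22.8, 17.3, 18.9, and 18.3 CPM, were all above those labelled *Il1rl1*-/-, at 16.3, 13.1, 15.6, and 15.1 CPM, a separation that 2.41% of all genes tested had in monocytes. In RPMs the intervals were narrow for the abundant genes, such as *Csf1r* at 0.14 (95% interval −0.094 to 0.37), *Il10rb* at −0.0058 (95% interval −0.21 to 0.20), and *Csf3r* at 0.070 (95% interval −0.14 to 0.28). They were wide for *Flt3*, at −0.19 (95% interval −1.36 to 0.98), for *Il3ra* in pre-RPMs, at 0.36 (95% interval −0.44 to 1.15), and for *Csf1r* in monocytes, at 0.27 (95% interval −0.73 to 1.28). Differences within these intervals were not excluded. The sum of NK cell markers was lower in pre-RPMs labelled *Il1rl1*-/- (12.3 to 47.99 CPM) than in WT pre-RPMs (64.02 to 129 CPM), as was that of 8 basophil and mast cell markers (at most 8.84 against at least 14.9 CPM), of which *Gata2* was 0.899 to 2.54 and 4.70 to 24.03 CPM. The sum of 6 B cell markers was lower as well, at 24.3 to 49.4 against 49.6 to 68.8 CPM. That of 9 dendritic cell markers was higher, at 134 to 166 against 91.1 to 129 CPM. None of these sums overlapped between the genotypes, whereas those of all other marker lists did in pre-RPMs. Of all genes tested, 5.02% did not overlap there. By gene, 3 of 4 NK cell markers tested passed, 1 of 3 of basophils and mast cells, 2 of 6 of B cells, and 1 of 6 of dendritic cells. *Flt3*, a gene of dendritic cells, differed by 0.40 (95% interval −0.11 to 0.92) in pre-RPMs, and the part of these markers in the genotype values was not tested. With the replicate number as a block, the calls over all genes went from 7 to 27 in monocytes and from 26 to 81 in RPMs, and those among the 10 genes stayed at 0.

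No difference between genotypes in the change from one population to the next was detected for the 10 genes, with 0 passing an adjusted p under 0.05 in either interaction by edgeR or DESeq2, 0 with an unadjusted p under 0.05, and 0% and 0.107% of all genes passing (0.0658% and 0.0412% in each direction for the latter). For monocytes to pre-RPMs, the largest estimate was that of *Flt3*, at 0.71 (95% interval −0.24 to 1.66). For pre-RPMs to RPMs it was again *Flt3*, at −0.58 (95% interval −1.86 to 0.70), whereas the intervals were narrower for *Csf2rb*, −0.11 (95% interval −0.44 to 0.21), and *Csf3r*, −0.050 (95% interval −0.41 to 0.31).

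**Figure D5:**
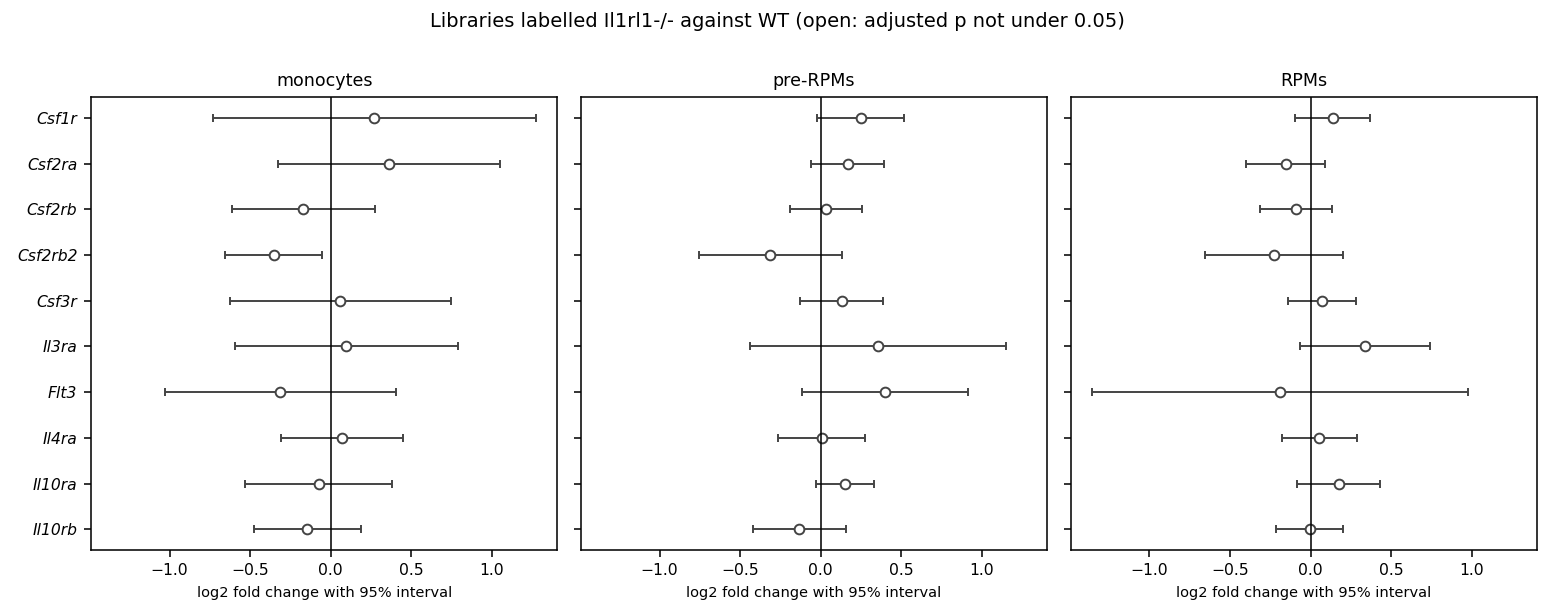
Log2 fold change of each gene in libraries labelled Il1rl1-/- against WT libraries in the 3 populations, with 95% intervals from the edgeR fit and open points where the adjusted p was not under 0.05. No point is filled, and the widest interval was that of Csf1r in monocytes, Il3ra in pre-RPMs, and Flt3 in RPMs.

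Other genes of the same pathways were described from 4 lists. Of 19 further cytokine receptors, 16 were tested from WT pre-RPMs to WT RPMs, of which 2 rose and 5 fell, with a median log2 fold change of −0.32, where 24.7% of all genes tested (14% higher and 10.7% lower) passed. The larger changes were those of *Il17ra* (−3.18, SE 0.15), a chain of the IL-17 receptor, and *Il13ra1* (−2.48, SE 0.15), which pairs with *Il4ra* to bind IL-13, both lower, and of *Il21r* (2.20, SE 0.30) and *Tgfbr2* (1.44, SE 0.13), receptors of IL-21 and TGF-beta, both higher. From WT monocytes to WT pre-RPMs, 0 of 15 rose and 1 fell, *Il2rg* (−1.08, SE 0.18), the common gamma chain that pairs with *Il4ra*, where 3.57% of all genes tested (0.316% higher and 3.25% lower) passed. From WT monocytes to WT RPMs, 2 of 16 rose and 3 fell, again *Il21r* (2.25, SE 0.41) and *Tgfbr2* (1.39, SE 0.12) higher and *Il17ra* (−2.48, SE 0.28), *Il2rg* (−1.90, SE 0.20), and *Il13ra1* (−1.70, SE 0.35) lower, where 23.9% of all genes tested (13.4% higher and 10.5% lower) passed. *Il2rg* is also expressed by NK cells, whose marker sum was likewise highest in monocytes, and its part in the result was not tested.

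Of 10 ligand genes, 3 had enough counts to be tested, and *Csf1* was the only one to pass, lower in WT RPMs than in WT pre-RPMs (−2.71, SE 0.36) and WT monocytes (−2.63, SE 0.44). Of all genes tested, 10.7% and 10.5% were lower in these comparisons. Of 22 signalling genes, 20 were tested from WT pre-RPMs to WT RPMs, of which 3 rose, *Socs2* (2.66, SE 0.32), an inhibitor induced by STAT5, *Pik3r1* (1.21, SE 0.10), a regulatory subunit of PI3 kinase, and *Jak3* (1.08, SE 0.18), and 2 fell, *Stat5a* (−1.51, SE 0.15) and *Stat3* (−1.32, SE 0.10), the factors activated by GM-CSF and IL-10 receptors. That share was near the 24.7% of all genes tested. From WT monocytes to WT pre-RPMs 0 of 20 rose and 2 fell, *Jak1* (−1.24, SE 0.19) and *Pik3r1* (−1.12, SE 0.16), and from WT monocytes to WT RPMs 0 of 21 rose and 4 fell, *Stat5a* (−1.45, SE 0.17), *Jak1* (−1.23, SE 0.19), *Stat3* (−1.17, SE 0.10), and *Jak2* (−1.17, SE 0.15), against 3.57% and 23.9% of all genes tested. Of 12 genes known to respond to these cytokines, 8 were tested from WT pre-RPMs to WT RPMs. *Mrc1* (5.70, SE 0.31), the mannose receptor, and *Ccl24* rose, and *Chil3*, *Nfil3*, *Clec10a*, and *Bcl3* fell, where 24.7% of all genes tested passed. *Chil3* had 0 counts in the 4 WT RPM libraries and was at least 25.9-fold higher in WT pre-RPMs, taking 3 counts per RPM library as the floor, and *Nfil3* and *Clec10a* had 3 counts or fewer in each. From WT monocytes to WT RPMs 3 of 8 rose and 4 fell, with *Mrc1* (6.27, SE 0.26) and *Ccl24* (4.88, SE 0.47) higher and *Chil3* (at least 54.97-fold higher in monocytes, by the same floor) and *Nfil3* lower, where 23.9% of all genes tested passed, and from WT monocytes to WT pre-RPMs 0 of 8 passed. Between genotypes, 0 genes of the 4 lists passed in any population by edgeR.

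For 9 of the 10 genes, those with a mean log2 CPM of at least 3, the genes with the most similar pattern were those with the smallest root mean square difference over the 6 group means of log2 CPM after centring. For *Csf1r* these were *Tns3*, *Marcks*, and *Lrp5* (differences of 0.0676 to 0.128), and for *Flt3* they were *Atp8b2*, *Spata13*, and *Ipcef1* (0.181 to 0.252), the least close of all. *Csf2ra* was closest to *Gpr35*, *Ext1*, and *Ppfia4* (0.0343 to 0.0707), *Csf2rb* to *Spi1*, *Dleu2*, and *Samhd1* (0.0628 to 0.0961), and *Csf2rb2* to *Traf3*, *Fau*, and *Klf11* (0.108 to 0.124). *Csf3r* was closest to *Rel*, *Kdm7a*, and *Cdc42ep4* (0.0273 to 0.0686). For *Il4ra* the genes were *Cdk16*, *Tbc1d14*, and *Tbc1d5* (0.0304 to 0.0371), for *Il10ra* *Bckdha*, *Stat2*, and *Acaa1a* (0.0394 to 0.0516), and for *Il10rb* *Bmi1*, *Mdn1*, and *Arfgef2* (0.0535 to 0.0580). *Il3ra* was too low to be compared in this way.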

How the data were processed

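Total RNA of sorted splenic cells, 1 library per mouse and population, was prepared with a stranded pico input kit and sequenced as paired reads. After trimming with cutadapt, the authors used STAR 2.5.1 for alignment and featureCounts 1.6.2, with strand, for the number of read pairs over the exons of Ensembl release 95 (GRCm38). The submitters' processing notes name GRCh38 and cutadapt 2.8 instead, but the deposited coordinates are those of the mouse. The deposited values are raw counts, 1 file per library. The 24 ATAC-seq samples of the series were not analysed here. Members and gene lists were chosen with earlier results of these data known.

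Groups and mouse numbers followed the labels. Counts were tested in R 4.3.3 with edgeR 4.0.16 (limma 3.58.1), using filterByExpr, TMM factors, the quasi-likelihood F test, and Benjamini-Hochberg adjustment over all genes tested, with the 8 libraries of the 2 groups compared, or all libraries of the 4 groups for an interaction. For populations the call needed an adjusted p under 0.01 with a log2 fold change beyond 1 in size, as in the study, and for genotypes and interactions it needed an adjusted p under 0.05. The SE and 95% interval were derived from the F statistic. CPM used TMM factors over the 24 libraries, log2 CPM a prior count of 2, and CPM per kb the exon length of each gene. Counts of 3 or less were not told apart from 0. All 10 genes passed the filter in every comparison. The genes named are the 10 members, up to 4 called genes per list and WT comparison with the largest changes and without overlap of the groups, and the 3 closest patterns. *Jak3* and *Bcl3*, and *Ccl24* and *Tgfbr2* in 1 comparison each, fell outside this rule and were named after their values were seen.

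Libraries with the same number within a genotype come from the same mouse, and the block by mouse was an alternative. Deviations of the same mouse from the group means correlated across 12842 genes at r = −0.039 to 0.117 (WT monocytes and pre-RPMs), 0.064 to 0.140 (WT pre-RPMs and RPMs), 0.035 to 0.156 (WT monocytes and RPMs), and 0.127 to 0.309, 0.093 to 0.141, and 0.048 to 0.156 in libraries labelled *Il1rl1*-/-. Between genotypes the numbers do not name the same animal, and r was 0.118 to 0.452 in monocytes, 0.046 to 0.154 in pre-RPMs, and 0.148 to 0.183 in RPMs. The tests were run on simulated counts for comparisons without monocytes, with the same spread set for every gene. That check does not cover the uneven monocyte libraries. DESeq2 1.42.0, Python 3.11.15, pandas 2.3.3, numpy 2.4.6, and matplotlib 3.10.9 were also used. A library deposited more than once was not found, since 0 pairs of libraries had identical counts.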

Additional observations from a re-analysis of the deposited data

Results flagged for a closer look

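In 3 of the 60 groups of 4 libraries (10 genes in 6 groups), the highest or lowest library lay apart from the other 3 by more than Dixon's 95% limit, a share that chance gives in about 1 of 20 groups. In RPMs labelled *Il1rl1*-/-, *Csf2ra* was 67.9 CPM in the library of mouse 3, against 51.6 to 52.9 CPM in the others. In pre-RPMs labelled *Il1rl1*-/-, *Il3ra* was 2.10 CPM in the library of mouse 3, against 3.32 to 3.46 CPM. In WT monocytes, *Il4ra* was 16.6 CPM in the library of mouse 3, against 23.1 to 23.9 CPM. The interaction test found no difference between genotypes in the change between populations for any of the 10 genes.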

How the results depend on the processing

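Of 1634 log2 fold changes of the 10 genes recomputed under alternatives, 1581 kept their side of the threshold, 37 newly passed, 16 no longer passed, and 0 called values changed sign; 60 values that passed in neither fit changed sign. From WT monocytes to WT pre-RPMs the count of genes that passed went from 0 to 1 (*Flt3*) with DESeq2, with every gene of at least 1 count, when the 24 libraries shared 1 fit, and with the replicate block by mouse, to 3 at an adjusted p under 0.05 with no fold limit, and from 0 to 3 with each library left out. From WT monocytes to WT RPMs it went from 5 to 3 with at least 10 counts in every library, where fewer genes were tested, to 8 with no fold limit, to 2 with glmTreat, and to between 3 and 5 with each library left out. In libraries labelled *Il1rl1*-/-, it went from 0 to 1 (*Csf1r*) with the replicate block, 5 with no fold limit, and 0 to 2 with each library left out from monocytes to pre-RPMs, and from 4 to 2 with at least 10 counts in every library and 8 with no fold limit from monocytes to RPMs. The pre-RPM to RPM counts stayed between 7 and 8 in WT and at 8 in libraries labelled *Il1rl1*-/- with each library left out. In WT and in libraries labelled *Il1rl1*-/- they were 5 and 6 with at least 10 counts in every library, where fewer genes were tested. They were 6 and 7 with glmTreat, where *Il3ra* no longer passed, and 9 and 10 with no fold limit. No genotype or interaction count left 0 under any alternative. The block by mouse changed no call other than those of *Flt3*, *Csf1r*, and *Csf3r* given above. Levels moved by less than 1 SD in 60 of 60 groups with RLE factors and in 56 of 60 with total counts.

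Over all genes, calls from monocytes to pre-RPMs were 396 in WT and 543 in libraries labelled *Il1rl1*-/-, and 1094 and 1060 with every gene, 217 and 264 with at least 10 counts, 198 and 257 with glmTreat, 1624 and 1912 with no fold limit, and, in WT, 694 with DESeq2, 772 in the single fit, and 169 to 1041 with each library left out (336 to 813 in libraries labelled *Il1rl1*-/-). From pre-RPMs to RPMs they were 2776 and 2973, and 1467 and 1542 with at least 10 counts and 5663 and 6182 with no fold limit, and from monocytes to RPMs 2769 and 3009, 1470 and 1536, and 5343 and 5760. Between genotypes the 7, 59, and 26 calls in monocytes, pre-RPMs, and RPMs were 27, 145, and 81 with the replicate number as a block, 26, 70, and 60 with DESeq2, 139, 265, and 272 with every gene, and 16, 17, and 26 in the single fit, and 3, 39, and 19 with at least 10 counts. With each library left out they were 1 to 8, 37 to 68, and 19 to 38, and the monocyte calls were 4 without WT monocyte replicate 1 and 1 without replicate 2 labelled *Il1rl1*-/-, and the pre-RPM calls 37 without WT pre-RPM replicate 1 and 38 without replicate 4 labelled *Il1rl1*-/-. The interaction from pre-RPMs to RPMs had 13 calls, and 36 with DESeq2, 224 with every gene, 3 in the single fit, 24 with the block, 36 with each of the 8 mice a term, 5 with at least 10 counts, and 7, 4, 6, and 2 without replicates 1 to 4 in turn, and that from monocytes to pre-RPMs had 0, and 78 with every gene. The cause of these differences was not tested.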
